A study of Mus musculus with 12 samples.

Results

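The olfactory receptor genes of mouse are described here in RNA pulled down with tagged ribosomes from the hypothalamus. They were taken as every row whose gene symbol is Olfr followed by a number, with names that carry -ps left out, which gave 112 of the 5764 genes in the authors' table. The tissue was arcuate-enriched hypothalamus of POMCRiboTag mice, in which ribosomes of POMC lineage neurons carry an HA tag. In the SENS group, chow was held behind wire mesh so that mice could see and smell it without eating. In the NEO group, mice met wooden pins caged in the same way. The 6 SENS and 6 NEO libraries shared everything else that the labels give, namely the genotype, a fast of 16 h, habituation to the room for 1 h, an exposure of 10 min and a time of day around zeitgeber time 6 h. The labels do not name the promoter of the Cre line, the sex or the age, and they do not say whether a library is 1 mouse, so p-values cover only the spread between these libraries. The 12 libraries include neither input RNA nor a pull-down without the tag, and fewer cells with a transcript cannot be told apart from less RNA per cell.

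Olfactory receptors are G protein-coupled receptors that detect odorants in the nose, where each sensory neuron chooses a single receptor gene and silences the rest. The signal then runs through the G protein Gnal, the cyclase Adcy3 and a cyclic nucleotide-gated channel that contains Cnga2, and mature neurons make the olfactory marker protein Omp. The genes sit in clusters on many chromosomes, most have their whole coding region in a single exon, and neighbours are often close copies. Class I receptors, which favour acids and other hydrophilic odorants, lie together on mouse chromosome 7, and class II receptors make up the other clusters. Some receptors are also made outside the nose, for example in kidney, blood vessels, sperm and muscle.

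The 3 receptor genes with the most reads are shown first by the 250 bases before their annotated start (RefSeq, GRCm38.p6), since the control region of a receptor gene is known to carry sites for Ebf (O/E) and homeodomain factors. Capitals mark a match to the O/E motif (TCCC and GGGA with 3 bases of any kind between them), the homeodomain motif TAATTA or the TATA motif TATAAA, searched on both strands with overlaps allowed. The windows are chr7:102702073-102702322 on the + strand for Olfr558, chr9:38752546-38752795 on the + strand for Olfr920 and chr15:98234451-98234700 on the - strand for Olfr286.
Olfr558: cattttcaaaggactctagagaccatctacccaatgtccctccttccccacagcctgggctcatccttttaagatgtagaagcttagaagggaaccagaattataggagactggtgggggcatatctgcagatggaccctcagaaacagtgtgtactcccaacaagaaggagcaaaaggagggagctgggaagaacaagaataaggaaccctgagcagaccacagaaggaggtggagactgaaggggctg
Olfr920: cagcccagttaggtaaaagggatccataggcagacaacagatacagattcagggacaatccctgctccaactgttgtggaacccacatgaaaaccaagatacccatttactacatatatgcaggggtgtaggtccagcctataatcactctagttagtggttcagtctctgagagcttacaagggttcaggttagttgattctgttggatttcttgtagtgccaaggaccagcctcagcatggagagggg
Olfr286: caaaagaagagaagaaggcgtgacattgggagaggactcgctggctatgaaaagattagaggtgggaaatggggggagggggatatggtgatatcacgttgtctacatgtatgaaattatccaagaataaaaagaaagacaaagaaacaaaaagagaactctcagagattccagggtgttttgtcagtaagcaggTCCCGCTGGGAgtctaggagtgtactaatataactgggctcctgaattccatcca
Of these 3 windows, Olfr286 alone held a match, which was to the O/E motif. The O/E motif was in 1 of the 90 receptor windows at hand and in 0.673% of all 32851 windows of the same length. TAATTA was in 13.3% of the receptor windows, in 18.1% of all 944 windows of Olfr genes and in 4.84% of all windows. TATAAA was in 10 of 58 windows of receptors with reads, against 17 of 32 windows of receptors at 0 and 12.4% of all windows. Among the windows of all Olfr genes the share of TATAAA was 39.4%. The median GC content was 40% in receptors with reads and 34.4% in receptors at 0. In 52 of the 90 receptors the annotated start was the start codon, so those windows lie before the coding region and need not hold the promoter. Among windows that end at a start codon, TATAAA was in 9 of 31 receptors with reads and in 11 of 21 receptors at 0. Among windows that end elsewhere, TATAAA was in 1 of 27 receptors with reads and in 6 of 11 receptors at 0. These matches are descriptions of letters and do not show binding.

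Reads in the genes of this table were few throughout, and the depth of the whole libraries is unknown. SENS libraries held 8619 to 18299 reads and NEO libraries 6901 to 11139 reads in the genes of this table, so 1 read was worth between 54.6 and 145 CPM (reads scaled to a sum of 1000000 per library over the genes of this table). Where a gene was at 0, up to 3 reads could have been missed, or 164 to 348 CPM per SENS library and 269 to 435 CPM per NEO library, and such limits cover counting error only. Late male germ cell markers stood out in SENS 1. The 8 of 12 listed markers in the table summed to 25756 CPM there and to 0 to 581 CPM in the other SENS libraries, against 380 to 1538 CPM in NEO. One of them, Tssk3, did not follow the others, with 22 reads in 3 SENS libraries and 53 reads in all 6 NEO libraries (372 ± 505 CPM in SENS and 1041 ± 412 CPM in NEO, SD, n = 6 each). The other 7 summed to 24480 CPM in SENS 1 and to 0 in every other SENS library, against 0 to 359 CPM in NEO. Among these, Prm2 and Tnp1, which package sperm DNA, had 65 and 59 reads in SENS 1 and 0 in every other SENS library, against 2 and 1 reads in NEO 2 and 0 in every other NEO library. Pituitary markers (6 of 9 in the table) summed to 64.1 to 9796 CPM in SENS, highest in SENS 4, and to 380 to 2797 CPM in NEO. The 14 listed markers of POMC neurons and their arcuate neighbours, Pomc among them, and the 11 of glia and vessels are not analysed here, so the labelled cell type could not be checked.

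Most receptor genes had few reads or none. Of the 112 genes, 72 had a value above 0 in at least 1 library and 40 (35.7%) were at 0 in all 12, against 10.3% of the 5652 other genes. The median receptor gene had 1 read over all libraries, against 9 reads over all genes of the table. Of the 72 with a value above 0, 41 were above 0 in 1 library, 19 in 2 or 3 libraries, 5 in 4 or 5 libraries and 7 in 6 or more. For all genes of the table above 0, 23.8% were above 0 in 1 library, against 56.9% of these receptors. In 1344 pairs of a receptor and a library, 63 held 3 or more reads and 12 held 10 or more, and the highest was 18 reads of Olfr920 in NEO 4. The receptor genes were taken by name, so these shares describe the list.

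**Figure D1:**
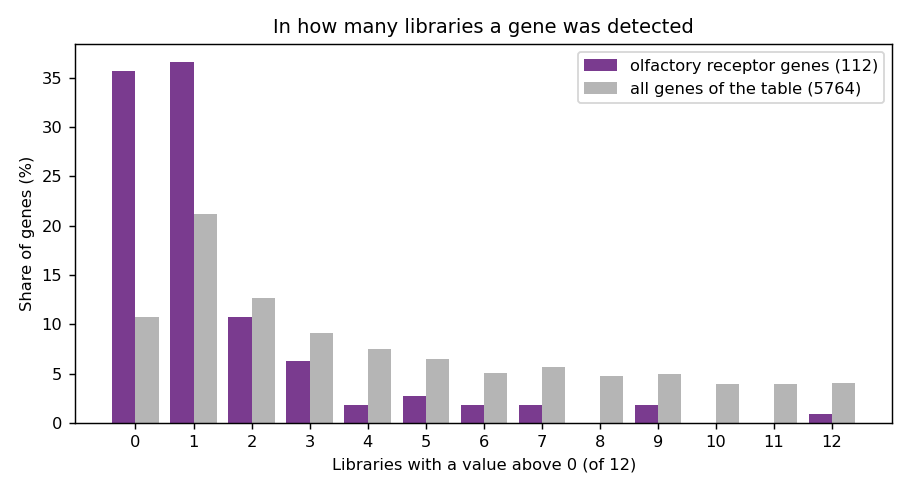
Share of genes (%) by the number of libraries, of 12, in which their value was above 0, for the 112 olfactory receptor genes and all 5764 genes of the table. At 0 libraries the bars stand at 35.7% for receptors and 10.8% for all genes, and at 1 library at 36.6% and 21.2%.

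All receptor genes together had 480 reads, and the 10 with the most reads held 63.4% of them. In each library 1 receptor held between 13.6% and 55.0% of the receptor reads. The leading gene was Olfr330, Olfr558, Olfr558, Olfr1033, Olfr658 and Olfr461 in SENS 1 to 6, and Olfr920, Olfr558, Olfr987, Olfr920, Olfr695 and Olfr920 in NEO 1 to 6. Reads per gene are not divided by length here, so this order is of reads and not of transcript level.

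Many receptor values were fractions of a read. Of the 165 receptor values above 0, 65.5% were whole reads (tolerance 0.005 reads), against 81.3% in the other genes. Values with a fraction occurred in 33 of the 72 receptors and were the only kind in 24. There were 10 cases in which 2 or more receptors of 1 cluster had a fraction in the same library, and in 9 of them the receptors' values summed to whole reads (tolerance 0.02 reads). In NEO 5, for instance, Olfr1392, Olfr1393, Olfr10 and Olfr1385 on chromosome 11 had 0.25 reads each, which sum to 1 read, and in SENS 4 the same 4 genes had 4.25, 3.25, 2.25 and 0.25 reads, which sum to 10. In SENS 1, Olfr330, Olfr331, Olfr329, Olfr325 and Olfr224, which also lie together on chromosome 11, had 4.7, 2.2, 1.7, 1.2 and 0.2 reads, again 10 in sum. Values of these 22 receptors are therefore uncertain gene by gene. Fractions in the rest of the 33, Olfr286, Olfr212 and Olfr1033 among them, are not covered by these sums and are uncertain too. The authors' handling of multiply matching reads is not stated.

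The chromosome 7 cluster of class I receptors (102476773 to 105369317, GRCm38) held more receptor reads than any other cluster, 120 of 480, with 13 of its 127 annotated genes in the table and 8 above 0. Olfr558 (102702323 to 102712054), a receptor for short-chain fatty acids that is also made in blood vessels and kidney, had 61 reads, all whole. It had 15, 14 and 3 reads in SENS 2, 3 and 6, and 10, 12 and 7 reads in NEO 1, 2 and 6. The other 3 libraries of each group were at 0. Its lowest, median and highest level were 0, 82.0 and 1050 CPM in SENS and 0, 452 and 1077 CPM in NEO. The groups overlapped over nearly their whole range, and limma gave a log2 fold change of −0.42 (SE 2.77, adjusted p = 0.997). Its sign turned when any 1 of SENS 1, SENS 4, SENS 5, NEO 1, NEO 2 or NEO 6 was left out.

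Other class I genes were seen in fewer libraries. Olfr658 had 3, 3 and 12 reads in SENS 1, 2 and 5, against 9 and 1 reads in NEO 1 and 5 (256 ± 389 CPM in SENS and 171 ± 352 CPM in NEO, SD, n = 6 each). This gene overlaps Usp17le-ps in the annotation, so its reads could belong to either. Olfr691 had 12 reads in SENS 2 and none in the other SENS libraries, against 3 and 2 reads in NEO 2 and 6. Its log2 fold change was −1.08 although its mean CPM was higher in SENS, at 128 CPM against 87.9 CPM in NEO. Olfr692, its neighbour, had 3 reads in SENS 4 and 1 in SENS 5, against none in NEO, which pooled over the group is 0.866 times the level of 3 reads in NEO. The summed level of the cluster was 860 ± 692 CPM in SENS and 849 ± 919 CPM in NEO (SD, n = 6 each).

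The receptor with the largest difference in reads was Olfr920 on chromosome 9 (38752796 to 38756863, GRCm38). It had 3 and 4 reads in SENS 2 and 5 and none in the other 4 SENS libraries, against 15, 1, 18, 1 and 9 reads in NEO 1, 3, 4, 5 and 6 and none in NEO 2. Its lowest, median and highest level were 0, 0 and 332 CPM in SENS and 0, 653 and 2283 CPM in NEO. NEO 1, 4 and 6 lay above every SENS library, and the other 3 NEO libraries lay within the SENS range. Means were 87.4 ± 142 CPM in SENS and 866 ± 922 CPM in NEO (SD, n = 6 each), with a log2 fold change of −5.04 (SE 2.60), an unadjusted p of 0.0559 and a limma adjusted p = 0.745. The gene thus did not pass. The size of its log2 fold change depended on the pseudocount added to CPM, at −6.69, −3.39 and −1.85 with 0.1, 10 and 100. Its cluster (37711348 to 40188094) had 12 of 97 annotated genes in the table, and Olfr920 held 85.7% of the cluster's reads.

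Olfr286 on chromosome 15 (98226675 to 98234450, GRCm38) was the receptor above 0 in all 12 libraries. It had 0.67 to 13.8 reads per library in SENS and 0.83 to 6 reads per library in NEO. Its lowest, median and highest level were 77.7, 213 and 756 CPM in SENS and 74.5, 243 and 775 CPM in NEO, so the groups covered the same range. Means were 313 ± 257 CPM in SENS and 313 ± 246 CPM in NEO (SD, n = 6 each), and limma gave a log2 fold change of −0.06 (SE 1.28, adjusted p = 1.00). The interval of 2 SE on either side spans several-fold changes in both directions, so equal levels are not shown. Of its 12 values 8 were fractional, and its cluster, which has 9 annotated genes, had no other receptor in the table.

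Olfr461 on chromosome 6 (40544036 to 40544977) had 3, 1, 11.5 and 14 reads in SENS 1, 2, 5 and 6 and none in SENS 3 and 4, against 2 reads in NEO 2 and none in the other NEO libraries. Its median was 206 CPM in SENS and 0 CPM in NEO, and its highest level was 955 CPM in SENS and 180 CPM in NEO. The log2 fold change was 4.41 (SE 2.68), with an unadjusted p of 0.104 and a limma adjusted p = 0.745. Olfr460, the other annotated gene of this cluster, had 0.5 reads in SENS 5, where Olfr461 also carried a fraction.

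Olfr315 on chromosome 11 (58778089 to 58779086) had 2, 4 and 5 reads in SENS 1, 4 and 5 and 0 of 51054 reads in NEO. Its pooled SENS level was 2.38 times a NEO limit of 3 reads over the group, and 1.53 times without SENS 5. These ratios leave out counting error in SENS and the spread between libraries, so they do not bound the difference between groups. Its 3 positive SENS libraries had 232, 372 and 415 CPM, and the other 3 SENS libraries were at 0 as in NEO. The log2 fold change was 4.19 (SE 2.11), with the smallest unadjusted p of any receptor, 0.0506, and a limma adjusted p = 0.745. It was the receptor with the most reads among those at 0 in 1 group.

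On chromosome 19, Olfr1417 had 0.5 and 1 reads in SENS 3 and 5, against 3, 7, 1 and 1 reads in NEO 3, 4, 5 and 6. Its neighbour Olfr1418 had 0.5 reads in SENS 3, against 2, 2 and 1 reads in NEO 3, 4 and 6. The 0.5 reads of the pair in SENS 3 sum to 1 read, and the NEO values were all whole. The summed level of this cluster was 26.3 ± 40.9 CPM in SENS and 412 ± 437 CPM in NEO (SD, n = 6 each). Neither gene passed (log2 fold change −3.51, SE 2.72 for Olfr1417 and −2.98, SE 2.26 for Olfr1418, limma adjusted p = 0.745 for both).

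**Figure D2:**
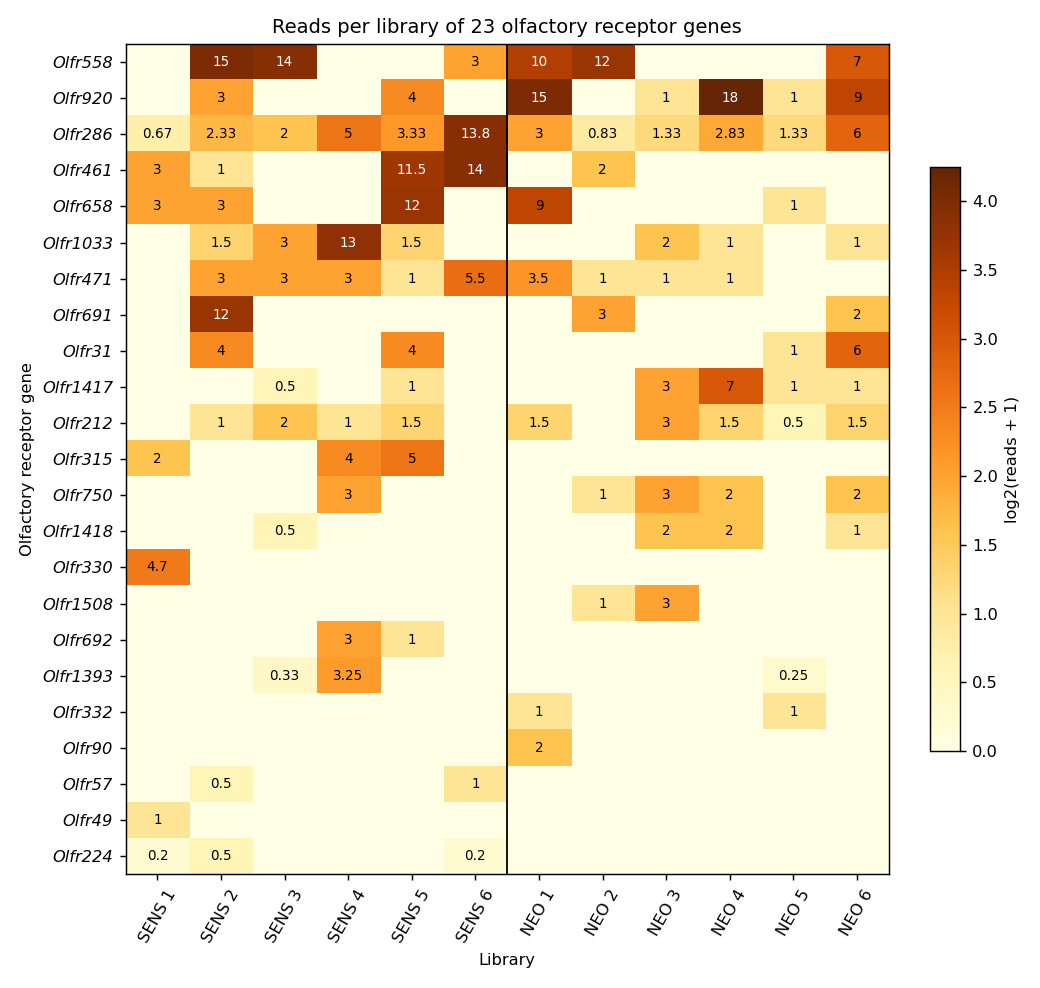
Reads of 23 olfactory receptor genes (rows) in the 6 SENS and 6 NEO libraries (columns), with the colour on a log2(reads + 1) scale and blank cells at 0. Olfr286 alone has a value in every column, Olfr315 has values in 3 SENS columns and no NEO column, and Olfr920 has 18 reads in NEO 4.

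Of the remaining genes named by rule, Olfr1033 on chromosome 2 had 19 reads in SENS, 13 of them in SENS 4, against 4 reads in NEO. Olfr471 on chromosome 7, which RefSeq lists as the transcribed pseudogene Olfr471-ps1, was above 0 in 5 SENS and 4 NEO libraries (180 ± 117 CPM in SENS and 116 ± 126 CPM in NEO, SD, n = 6 each). Olfr212 on chromosome 6 was above 0 in 4 SENS and 5 NEO libraries, at 72.0 ± 62.8 CPM in SENS and 170.4 ± 143 CPM in NEO. Olfr31 on chromosome 14 had 4 and 4 reads in SENS 2 and 5, against 1 and 6 reads in NEO 5 and 6. Olfr750, also on chromosome 14, had 3 reads in SENS 4, against 1, 3, 2 and 2 reads in NEO 2, 3, 4 and 6 (log2 fold change −3.85, SE 2.63, limma adjusted p = 0.745). Olfr1508, which lies within the T cell receptor alpha locus Tcra in the annotation, had no reads in SENS and 4 in NEO, 1 in NEO 2 and 3 in NEO 3. Its pooled NEO level was 2.05 times a SENS limit of 3 reads, and 0.597 times without NEO 3. Olfr332 had no reads in SENS and 2 in NEO. Olfr57 and Olfr224 had 1.5 and 0.9 reads in SENS and none in NEO, under the limit of 3 reads. None of these 9 genes passed.

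By annotation, RefSeq placed 1117 genes of this name form in 50 clusters, a new cluster starting where neighbours lie over 1000000 bases apart. The table held genes of 28 clusters on 13 chromosomes, and reads fell in 25 clusters on 12 chromosomes. The largest annotated cluster, on chromosome 2 (85330967 to 90401674), has 225 genes, of which 11 were in the table and 6 above 0. Its summed level was 331 ± 491 CPM in SENS and 268 ± 369 CPM in NEO (SD, n = 6 each). The chromosome 11 cluster that holds Olfr315 and Olfr330 (58454915 to 59614225) had 9 of 24 annotated genes in the table, all above 0, at 370 ± 534 CPM in SENS and 132 ± 154 CPM in NEO. In SENS 1 this cluster reached 1392 CPM over 6 genes, while the other SENS libraries lay between 0 and 415 CPM and NEO between 0 and 420 CPM. SENS 1 was the library with the late male germ cell transcripts, and their part in this value was not tested. On chromosome 17 the 6 reads of the cluster from 37085191 to 38336097, which fell on Olfr95 and Olfr90, were all in NEO 1.

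**Figure D3:**
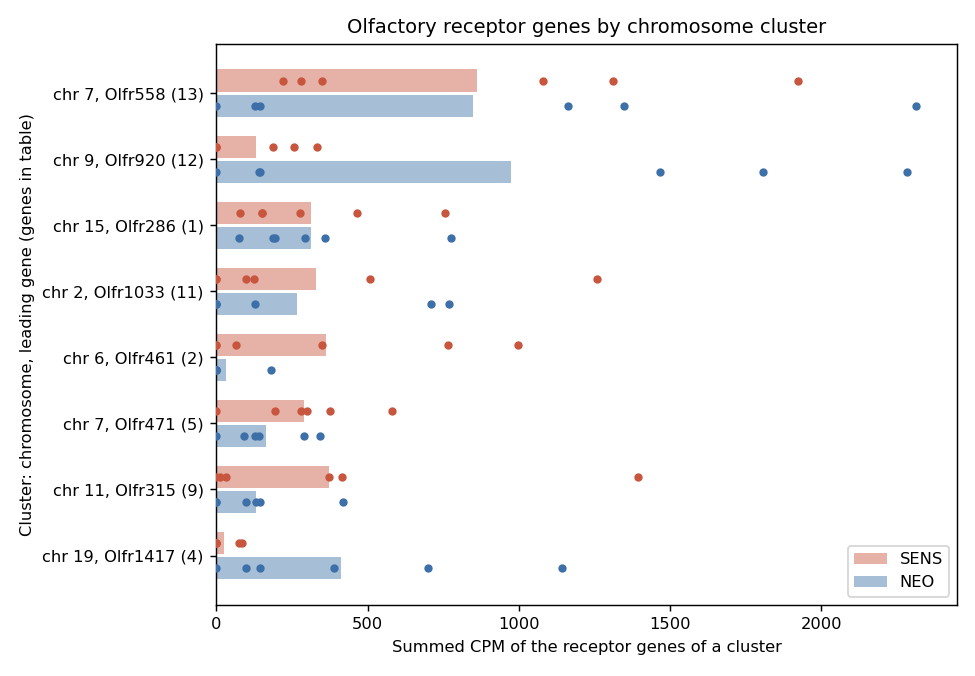
Summed CPM of the olfactory receptor genes of the 8 clusters with the most reads, labelled by chromosome, leading gene and number of genes in the table. Bars are means of 6 libraries and points are the libraries, with SENS above NEO in each pair. SENS averaged 129 CPM and NEO 974 CPM in the Olfr920 cluster, where 3 NEO libraries lay between 1466 and 2283 CPM.

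Sensing food for 10 min was set against the nonedible object to ask which receptor transcripts differed in the pulled-down RNA. Over all 112 genes, receptors summed to 3625 ± 1106 CPM in SENS and 3970 ± 1873 CPM in NEO (SD, n = 6 each), a difference well within the spread of either group. The SENS libraries ranged from 2160 to 5426 CPM and the NEO libraries from 1714 to 6262 CPM. In reads this was 278 of 78624 in SENS and 202 of 51054 in NEO, or 0.354% and 0.396%. The difference of −344 CPM was 332 CPM among the 6 libraries in the middle range of label numbers, −195 CPM among the 4 in the highest range and −2674 CPM for the single pair in the lowest. Receptors above 0 numbered 15 ± 4.60 per library in SENS and 12.5 ± 3.39 in NEO, out of 2137 ± 300 and 1894 ± 328 genes above 0 (SD, n = 6 each). As a share of the genes above 0 they were 0.688 ± 0.133% in SENS and 0.672 ± 0.184% in NEO.

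**Figure D4:**
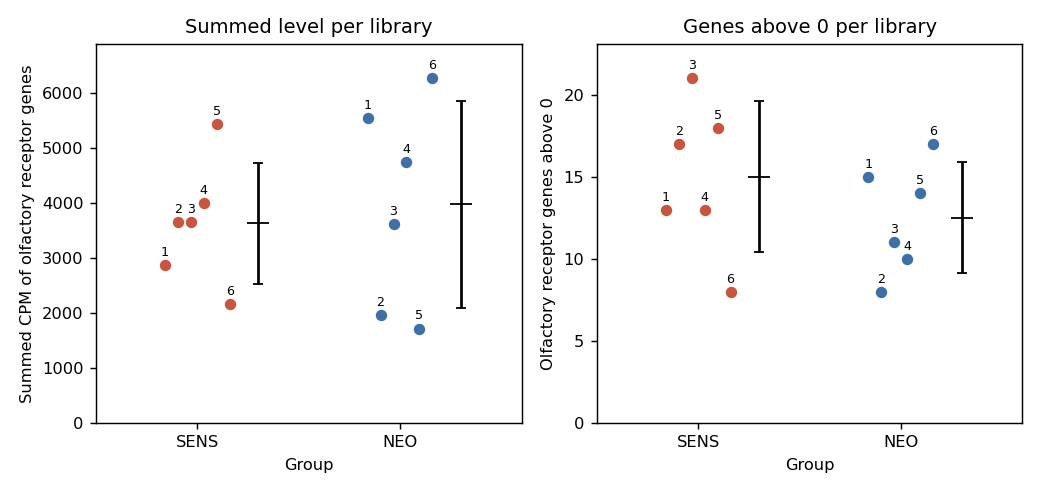
Summed CPM of the 112 olfactory receptor genes (left) and number of them above 0 (right) in each library of SENS and NEO, numbered by replicate, with the mean and SD (n = 6 each) beside the points. The groups overlap in both panels, with SENS from 2160 to 5426 CPM and NEO from 1714 to 6262 CPM.

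No receptor passed. The 72 receptors with a mean of at least 1 CPM were part of a limma fit of 5141 genes on log2(CPM + 1), which called 0 genes at an adjusted p under 0.05 (a background of 0%), and 0 receptors. At an unadjusted p under 0.05 it called 0 receptors, against 189 genes or 3.68% of all tested, 94 of them higher (1.83%) and 95 lower (1.85%) in SENS. That count of receptors was between 0 and 3 in the 21 alternative fits and above 0 in 12 of them, the 3 being Olfr315, Olfr461 and Olfr920 with no variance trend. The smallest adjusted p of a receptor was 0.745. Log2 fold changes were above 0 for 42 of the 72 receptors (58.3%), against 57% of all genes. Their median was 0.89, against 0.39 over all genes tested. The receptors' median was below that of all genes with quantile scaling (0.27 against 0.34), with no filter (0.00 against 0.04) and where the mean had to reach 100 CPM (−0.24 against 0.05). With no filter, 40 receptors at 0 in all 12 libraries had a log2 fold change of 0, beside 42 above and 30 below. The receptors' median was thus bound to be 0 there and does not show how they compare with all genes. With genes at 0 in 1 group set to their bound against the limit of 3 reads, both medians were 0. This applied to 47 of the 72 receptors and to 1694 of all genes tested, so the equal medians do not show agreement. The 72 passed the filter through any library with a value, 47 of them by values in a single group, and their median SE was 1.33, against 1.82 over all genes tested.

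Receptors above 0 in SENS but in no NEO library numbered 30 of 112 (26.8%), against 20.3% of all genes of the table. Those above 0 in NEO but in no SENS library numbered 17 (15.2%), against 9.16% of all genes. Those above 0 in both groups numbered 25 (22.3%), against 59.8% of all genes. Of the 30, 26 were above 0 in 1 library, as were 15 of the 17. SENS had 1.54 times the reads of NEO in this table, and the part of depth in these counts was not tested. With 1 library left out, the number in SENS only ranged from 22 to 37 and the number in NEO only from 10 to 20. Without SENS 1, which held the male germ cell transcripts, the numbers were 22 in SENS only and 17 in NEO only, and without SENS 3 they were 22 and 20. Without NEO 1 they were 31 and 10, and without NEO 5 they were 37 and 17. No receptor had groups that did not overlap, against 0.0867% of all genes.

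**Figure D5:**
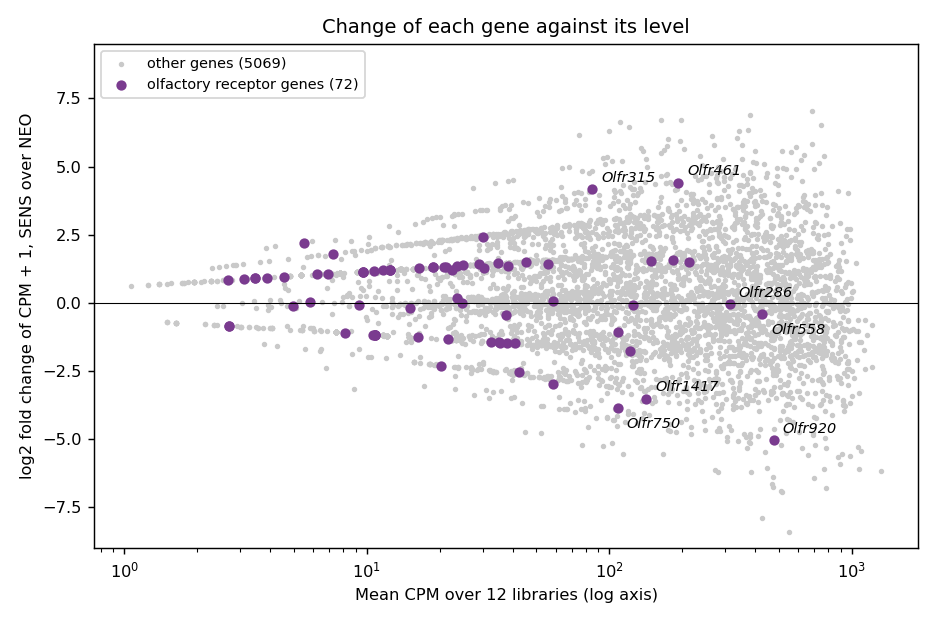
Log2 fold change of CPM + 1 (SENS over NEO) against mean CPM over 12 libraries (log axis) for the 72 olfactory receptor genes tested and the 5069 other genes tested. Receptors lie between −5.04 (Olfr920) and 4.41 (Olfr461), inside the cloud of other genes.

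A list of 35 receptors with known ligands or sites outside the nose had 13 genes in the table and 7 with reads. Olfr544, a receptor for azelaic acid made in pancreas and liver, was at 0 in all 12 libraries, as were Olfr99, Olfr111, Olfr545, Olfr1019 and Olfr1507. Each such 0 allows up to 38.2 CPM over the SENS group and 58.8 CPM over the NEO group. Olfr1393, known from the proximal tubule of the kidney, had 0.33 and 3.25 reads in SENS 3 and 4 and 0.25 reads in NEO 5, all fractional. Olfr90 was at 0 in SENS and at 2 reads in NEO 1, and Olfr49 was at 1 read in SENS 1 and at 0 in NEO. Of the 7 tested, 3 had log2 fold changes above 0 and 4 below, and 0 passed.

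Of 47 listed genes of odorant signalling and mature sensory neurons, 7 were in the table and 0 passed, with 4 log2 fold changes above 0 and 3 below. Omp had 12, 0, 28, 8, 2 and 32 reads in SENS 1 to 6, against 13, 6, 0, 0, 0 and 11 reads in NEO 1 to 6 (1025 ± 858 CPM in SENS and 538 ± 661 CPM in NEO, SD, n = 6 each). In limma its log2 fold change was 3.22 (SE 2.10, adjusted p = 0.745). Cnga2 had 420 ± 556 CPM in SENS and 1377 ± 1210 CPM in NEO (log2 fold change −1.78, SE 1.53). Ano2, a calcium-activated chloride channel of the cilia, had 713 ± 1551 CPM in SENS and 1465 ± 957 CPM in NEO. It was above 0 in 2 SENS libraries, with 51.5 of 56.5 reads in SENS 3, and in 5 NEO libraries. Its log2 fold change in limma was −5.44 (SE 2.29), with an unadjusted p of 0.0195 and an adjusted p = 0.745. The 2 of 12 listed sensory neuron markers that were in the table, Omp and Cnga2, summed to 128 to 3599 CPM in SENS and 539 to 4691 CPM in NEO. Of 13 listed markers of supporting and basal cells of the olfactory epithelium 9 were in the table. They summed to 72.7 to 1397 CPM in SENS and 0 to 2135 CPM in NEO. Of these 8 had reads, and Krt5 was at 0 in all 12 libraries. By mean CPM Bpifb3 led, with 15 reads in 4 SENS libraries and 26 reads in 5 NEO libraries. Bpifb5 had 2 reads in SENS and 13 in NEO, and Krt14 had 5.49 and 5.16 reads. Of 10 olfactory bulb markers the table held Sp8, with 1 read in SENS 2 and none in NEO. Whether any of these cells contributed receptor reads was not tested.

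Other chemoreceptor families are described for those of their genes that are in the table, which do not show how whole families compare. Of 38 listed taste receptors 5 were in the table and 2 had reads. Tas2r135 had 2 reads in 1 SENS library, and Tas2r126 had 10 reads in 2 NEO libraries. Of 7 formyl peptide receptors 4 were in the table, led by Fpr2, which is also made by myeloid cells. Fpr2 had 59.8 reads in SENS and 7 in NEO. The 4 genes summed to 2523 CPM in SENS 6 and to 417 CPM in the next highest SENS library. In NEO they summed to 586 CPM in NEO 1 and to 145 CPM in the next highest library. Of 16 Ms4a genes, which encode chemoreceptors of necklace neurons but are better known from leukocytes, 14 were in the table and 12 had reads, 243 in SENS and 71 in NEO. The median of the 14 was 17 reads over all libraries. Of the 12 tested, 10 had log2 fold changes above 0 and 2 below, against 57% above 0 over all genes tested. The 2 were Ms4a6d, with 4.5 reads in SENS and 14 in NEO, and Ms4a3, with 0 and 3. Over the whole table SENS had 1.54 times the reads of NEO. Ms4a6b had 602 ± 439 CPM in SENS and 372 ± 381 CPM in NEO, and Ms4a6c 532 ± 478 CPM in SENS and 266 ± 271 CPM in NEO (SD, n = 6 each). Of 12 blood cell markers 7 were in the table, 4 with log2 fold changes above 0 and 3 below, at summed levels of 1914 to 4611 CPM in SENS and 635 to 3260 CPM in NEO, and their part in the Ms4a values was not tested. None of these genes passed, and the 15 listed trace amine-associated receptors are not analysed here.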

How the data were processed

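Translated RNA from the arcuate-enriched hypothalamus was sequenced after an HA pull-down, and the authors deposited 1 table of CPM with a column per library. FastQC, HISAT2, featureCounts and edgeR, and GRCm38 (mm10) as build, are listed without versions per the submitters' processing notes. No source used here states the filter, the strand setting or what was done with multiply matching reads. Each column sums to about 1000000 over the table's own genes, so the depth of a whole library is unknown.

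The worth of 1 read was taken as the most frequent value above 0 in a column, and CPM were divided by it. Of the values above 0, 81.2% were whole reads (tolerance 0.005 reads), and no count model was fitted. Genes whose mean reached 1 CPM were fitted on log2(CPM + 1) with limma 3.58.1 in R 4.3.3 (variance trend, no covariate, two-sided, Benjamini-Hochberg over all 5141 genes, threshold 0.05). These fold changes depend on the pseudocount of 1 where libraries are at 0. Tables were made in Python 3.11.15 with pandas 2.3.3.

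RefSeq of GRCm38.p6 held 111 of the 112 receptors by symbol and 1 by synonym, and had upstream windows for 90. The receptors and lists were chosen with earlier results of these data known. Named genes were the 10 with the highest mean CPM, the 6 per direction with the smallest p, listed receptors with reads, the leading gene of clusters with at least 10 genes in the table and any gene above 0 in at least 11 libraries, 23 in all, plus up to 3 genes per other list. Same-numbered SENS and NEO libraries did not visibly deviate together, and no pairing was used in the main fit. With so few reads this check cannot exclude a pairing. Alternatives were other pseudocounts (0.1, 10, 100), filters (none, 100 CPM), quantile scaling, no variance trend, blocks for the replicate number and the label number range, and leaving out each library. Counts of receptors by group and ratios to the limit of 3 reads, without each library, were added after the data were seen. Rows named as pseudogenes were left out.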

Additional observations from a re-analysis of the deposited data

Results flagged for a closer look

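In 50 sets of 6 libraries tried (the 23 named receptors, the summed CPM and the number above 0, each in SENS and NEO), 15 had 1 library far from the other 5 by Dixon's criterion, 9 in SENS and 6 in NEO. Chance alone gives about 1 in 20 for evenly spread data, and with most values at 0 this criterion is met by any receptor seen in 1 library, as in 8 of the 15. Neither the summed CPM nor the number above 0 was among them.

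In SENS the libraries apart were SENS 5 for Olfr658 (997 CPM), SENS 4 for Olfr1033 (1211 CPM), SENS 2 for Olfr691 (769.7 CPM), SENS 4 for Olfr750 (279 CPM), SENS 3 for Olfr1418 (37.5 CPM), SENS 1 for Olfr330 (545 CPM), SENS 4 for Olfr692 (279 CPM), SENS 4 for Olfr1393 (303 CPM) and SENS 1 for Olfr49 (116 CPM). In NEO they were NEO 2 for Olfr461 (180 CPM), NEO 1 for Olfr658 (879 CPM), NEO 6 for Olfr31 (775 CPM), NEO 3 for Olfr1508 (420 CPM), NEO 5 for Olfr1393 (36.2 CPM) and NEO 1 for Olfr90 (195 CPM). Olfr330, Olfr1393 and Olfr1418 had fractions of a read in these libraries, where neighbouring receptors had them too. SENS 1 also held the late male germ cell transcripts.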

How the results depend on the processing

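Under all 21 alternative fits 0 genes and 0 receptors were called, and the smallest adjusted p of a named receptor was 0.682. At an unadjusted p under 0.05 there were 0 to 3 receptors. Of 469 values of the 23 named receptors under these fits, 451 kept their sign. Many of them could not turn. The filters, the variance trend and the blocks leave a log2 fold change as it is. Receptors at 0 in 1 group keep their sign under other pseudocounts and with 1 library left out. The 451 are thus no measure of robustness. The 18 that turned belonged to Olfr558, Olfr286 and Olfr31, all near 0: Olfr31 had a log2 fold change of 0.25 with quantile scaling, and with 1 library left out the range was −1.52 to 0.60 for Olfr558, −0.40 to 0.27 for Olfr286 and −1.20 to 1.29 for Olfr31. Sizes of single log2 fold changes depended on the pseudocount. With 0.1, 10 and 100 they were −6.69, −3.39 and −1.85 for Olfr920 and 6.07, 2.78 and 1.32 for Olfr461. For Olfr315 they were 5.84, 2.54 and 1.06, and for Olfr750 −5.51, −2.23 and −0.84. The median log2 fold change of the receptors tested depended on the settings. It was 1.44, 0.38 and 0.084 with pseudocounts of 0.1, 10 and 100, 0.00 with no filter, −0.24 with a mean of at least 100 CPM (12 receptors) and 0.27 with quantile scaling, and it ranged from 0.38 to 1.01 with 1 library left out. The 0.00 with no filter follows from the 40 receptors at 0 in all 12 libraries. The cause of the other shifts was not tested beyond the settings themselves. The difference in summed CPM ranged from −796 to 114 with 1 library left out (SENS higher only without NEO 6), was −808 with whole reads and −506 without receptors that overlap another gene, and was −2674 in the lowest range of label numbers. The difference in receptors above 0 was −2, 7.33 and −2.5 in the 3 ranges of label numbers, 1.17 when at least 1 read was required, and 1.3 to 3.9 with 1 library left out. Same-numbered libraries of the groups had correlations of deviations between −0.03 and 0.08, and 1 of 6 SENS libraries correlated best with its own number. Noise from few reads can hide a pairing, so the check cannot exclude one. With the replicate number as a block 0 genes were called and the median of the receptors was 0.89. Few reads limit every value: 59 of the 72 receptors with reads had fewer than 10 over all 12 libraries.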

Other observations

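The pseudogene row Olfr856-ps1, which the choice by name left out, had more reads than most receptor genes. It had 2 and 1 reads in SENS 3 and 4, against 4, 8, 1 and 1 reads in NEO 1, 2, 3 and 6. Olfr75-ps1 was at 0 in all 12 libraries.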
